A study of Rattus norvegicus with 24 samples.

Results

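The genes described here are the cytoplasmic ribosomal protein genes of rat dorsal root ganglion (DRG) neurons. Genes were taken whose symbol is Rpl or Rps, then a number and further letters or digits, and whose mean was at least 10 CPM (counts of unique molecular identifiers, UMIs, scaled to a total of 1000000 per cell or sample) over the cells that passed quality control. The pattern matched 86 of the 32881 genes shared by the count files, and 72 of these reached the limit. By name, 36 encode proteins of the large (60S) subunit and 26 of the small (40S) subunit. The remaining 10 match the pattern but are no ribosomal proteins: the kinases Rps6ka1, Rps6ka2, Rps6ka3, Rps6ka5, Rps6ka6, Rps6kb1, Rps6kb2, Rps6kc1 and Rps6kl1, and Rps19bp1, which is named for binding Rps19. They are given apart, and "ribosomal protein genes" below means the 62. Just above the limit lay Rps6ka6 at 10.45 CPM and Rpl39 at 10.56 CPM, and just below it lay Rps9 at 9.19, Rpl35a at 8.04 and Rps6ka4 at 7.88 CPM.

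The cells were L4 and L5 DRG neurons of male Sprague-Dawley (SD) rats, drawn up 1 by 1 with a mouth pipette. Spared nerve crush (SNC) means that the tibial and common peroneal branches of the left sciatic nerve were crushed while the sural branch was spared; in sham rats the nerve was only exposed. The main part of the series has 16 DRG samples, called labelled here, of neurons that carried a tracer dye injected into branches of the nerve. They comprise 4 sham samples, 4 SNC samples of day 1, 3 of day 3 and 5 of day 7, with both libraries of 1 DRG sample joined as SNC 7 d sample 1+2. Another 7 libraries, whose labels give sham and day 0, 1, 3 or 7, are kept apart as added sham. The age of the rats, and which rats gave which library, are not given in the sources used here, and an SNC sample mixes crushed and uncrushed neurons, because a cell's dye is not among the data used. The p-values below therefore measure the spread between these samples only.

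Of 1464 cells, 1433 were kept, 930 labelled and 503 added. The labelled samples hold 24 to 96 cells each, with a median of 170620 to 437460 UMIs per cell, and the added libraries 44 to 96 cells with medians of 236120 to 492070. No cell repeated another cell's values. The glial markers Apoe, Fabp7, Mbp and Sparc summed to between 83.5 and 1213 CPM per labelled sample, highest in sham sample 1 at 1213 and in SNC 1 d sample 3 at 865. A labelled cluster of 42 cells and an added cluster of 30 cells carry glial genes and were left unnamed.

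A ribosome is built from ribosomal RNA and a set of proteins that are needed in nearly equal numbers, so their genes are usually expressed together. Most of their mRNAs begin with a run of pyrimidines, the 5′ terminal oligopyrimidine motif, through which the mTOR pathway sets how strongly they are translated. The S6 kinases are named for phosphorylating ribosomal protein S6. In sensory neurons, large myelinated cells of the neurofilament (NF) class and small peptidergic (PEP) and non-peptidergic (NP) cells differ widely in size and so in RNA content.

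The starts of 7 members are shown because the members differ in the pyrimidine run and, below, in how they behave with depth: Rpl37a and Rps16 are abundant, Rpl31, Rps13 and Rpl38 were higher in deep cells while most members were lower, Rpl22l1 encodes a paralog of Rpl22, and Rps6ka2 is a kinase. Each window runs from 45 bases before to 25 bases after the start in RefSeq on GRCr8, 5′ to 3′ on the gene's strand. Capitals mark the word CTTTC, the word CTTTT, the word CTTCC and the word CTTCT, which can share letters with each other, within 25 bases to either side of the start. The count files use Rnor_6.0, so these positions are RefSeq's and not the files'.
Rpl37a (chr9:81748046-81748115, plus strand): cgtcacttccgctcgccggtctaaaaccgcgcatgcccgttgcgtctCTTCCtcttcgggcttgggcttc
Rps16 (chr1:92770613-92770682, plus strand): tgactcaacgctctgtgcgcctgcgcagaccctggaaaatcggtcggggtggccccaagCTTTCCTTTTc
Rpl31 (chr9:49143066-49143135, plus strand): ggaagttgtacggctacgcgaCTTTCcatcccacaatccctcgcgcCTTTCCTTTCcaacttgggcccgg
Rps13 (chr1:180009636-180009705, minus strand): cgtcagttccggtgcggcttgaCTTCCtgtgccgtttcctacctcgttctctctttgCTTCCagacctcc
Rpl38 (chr10:100200390-100200459, plus strand): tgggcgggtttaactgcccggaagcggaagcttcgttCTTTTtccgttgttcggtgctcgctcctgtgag
Rpl22l1 (chr2:113683151-113683220, plus strand): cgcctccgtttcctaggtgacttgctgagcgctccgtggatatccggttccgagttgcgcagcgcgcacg
Rps6ka2 (chr1:55318766-55318835, plus strand): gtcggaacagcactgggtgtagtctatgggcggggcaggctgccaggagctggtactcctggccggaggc

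RefSeq promoters were matched for 58 members, 48 of the ribosomal protein genes and 10 of the others. At least 1 of the 4 words stood on the gene's strand in 36 of the 48 ribosomal promoters (75%) and in 0 of the 10 others, against 26.1% of all 33469 promoters of the table. On the opposite strand the share was 20.8% of ribosomal promoters and 27% of all. Rpl31 and Rps13 hold the words as the abundant Rps16 does.

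Among the most abundant were Rpl41 with a mean of 1220 CPM over QC cells, Rpl37a with 801, Rps16 with 800 and Rpl14 with 791. Rpl41 encodes one of the smallest proteins of the large subunit. The lowest ribosomal protein genes were Rpl39 with 10.6 CPM, Rps10l1 with 12.9, Rpl9 with 16.5, Rps4y2 with 29.0 and Rps18l1 with 40.3, of which Rps10l1 and Rps18l1 carry the symbols of Rps10-like and Rps18-like genes. Rps6ka6 was lowest of the 72 and Rps6kl1 had 13.7 CPM. Because UMIs are counted at the 3′ end, CPM values are not divided by length.

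The ribosomal genes of low count are uncertain, because ribosomal protein genes have many near-identical processed copies that can take or lose reads. Rps6, Rpl10a and Rpl23a are listed at 0 in every QC cell, Rpl8 had a mean of 0.114 CPM, and Rpl7l1 had 3.70. The others that match the pattern and stayed below the limit are Rpl10l, Rpl3l, Rpl36al, Rpl39l, Rpl30l1 and Rps15al4. Among ribosomal proteins whose symbols do not match the pattern, Rplp0 averaged 687 ± 75.2 CPM (SD, n = 16 labelled samples), Rplp1 508 ± 98.6 and Rpsa 460 ± 98.6. Rplp2 averaged 0.253 ± 0.162 CPM and Fau 0.0315 ± 0.0407, so ribosomal genes listed near 0 occur outside the pattern too.

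Together the 62 genes took 2.75% ± 0.285 of all UMIs (SD, n = 16 labelled samples), 1.67% ± 0.174 in the large subunit and 1.08% ± 0.111 in the small. The 10 other members took 0.0517% ± 0.00414. Most of the ribosomal genes kept a steady level between samples. Their coefficient of variation over the 16 samples had a median of 12.0%, and was lowest for Rpl5 at 5.17%, which encodes a large-subunit protein that carries 5S rRNA. Rpl5 lay between 323 and 383 CPM with a median of 347.

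The coefficient of variation exceeded 25% for 6 ribosomal genes. These were Rps10l1 (83.2%), Rps4y2 (46.3%), Rpl38 (38.0%), Rpl26 (32.8%), Rpl31 (31.6%) and Rps13 (26.8%). In the 4 sham samples Rpl31 measured 254, 142, 168 and 108 CPM, and over the 16 samples it lay between 83.8 and 254 with a median of 128. Rpl26 had 358 CPM, Rps13 had 250 and Rps10l1 had 74.7 in sham sample 1, each its highest value of the 16, and Rpl31 was highest there too. That sample was the highest for 54 of the 62 ribosomal genes, the 8 exceptions being Rps7, Rpl22l1, Rpl37, Rps27l, Rpl38, Rps18l1, Rpl9 and Rpl39. These 4 genes are among 9 whose next highest value was in SNC 7 d sample 1+2, at 265 CPM for Rpl26, 182 for Rps13, 35.0 for Rps10l1 and 181 for Rpl31. The elongation factor Eef1a1, which brings aminoacyl-tRNA to the ribosome, was also highest in those samples, at 569 and 359 CPM, against 153 to 325 in the rest. The study's sample table gives both of those samples an earlier sequencing date than all other labelled samples. Whether these values go with the sequencing run was not tested.

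Rpl38 did not share that order. It had 49.2 CPM in sham sample 1 and was lowest in SNC 7 d sample 4 at 33.6, with a median of 129 and a highest value of 152 in SNC 7 d sample 3. Its values within 1 group spread as widely as those over the whole series, from 49.2 to 149 in sham and from 33.6 to 152 at 7 days. At 3 days all 3 samples were close, from 140 to 144 CPM.

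**Figure D1:**
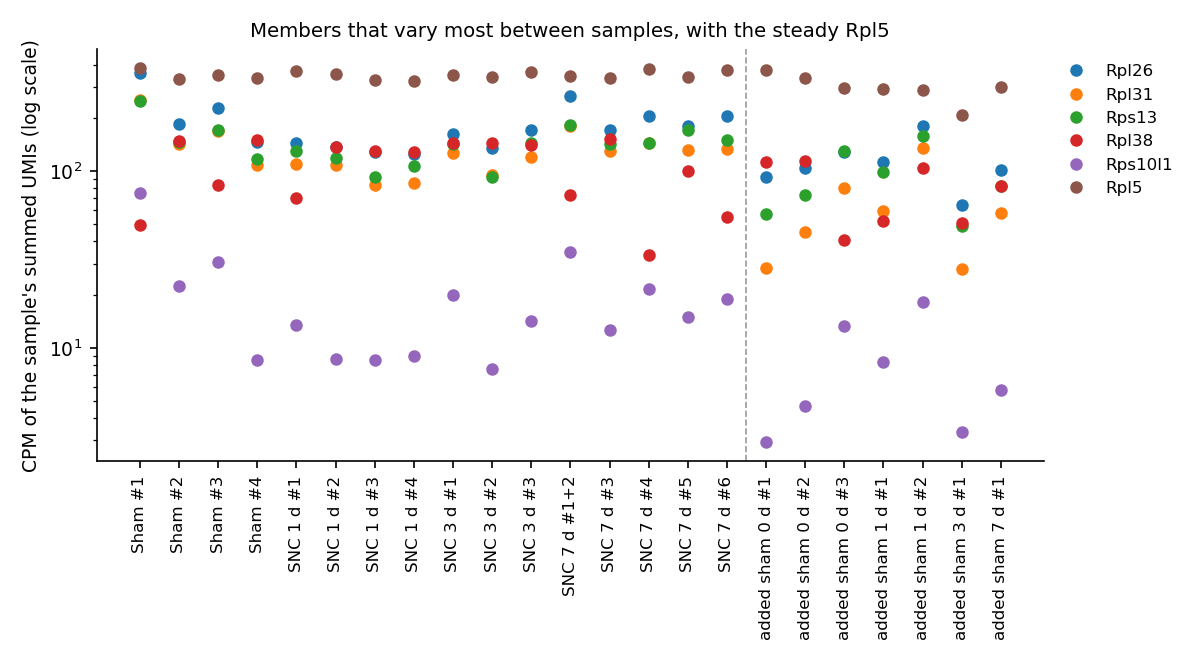
CPM on a log axis (vertical) of 6 ribosomal protein genes in each of the 16 labelled samples and, right of the dashed line, the 7 added sham libraries; each point is 1 gene in 1 sample. Rpl26, Rpl31, Rps13 and Rps10l1 are highest in sham sample 1, with 358, 254, 250 and 74.7 CPM, while Rpl5 stays between 323 and 383 CPM in labelled samples.

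Within samples most members varied together from cell to cell. As the median over the 16 samples, the Spearman correlation across the cells of a sample between a gene's level and the summed share of the other ribosomal genes was positive for 53 of the 62, over 0.5 for 44 of them, and negative for 9. The most negative was Rpl38 at -0.43, and Rpl31 had -0.20. These cells share libraries and depth, and the share itself followed depth, as described next.

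The ribosomal share of a cell varied with its count of UMIs. Within each labelled sample the Spearman correlation between a cell's share and its UMIs was negative, from -0.97 to -0.52 in 16 of 16 samples, and across all labelled cells it was -0.71. The mean share was 3.71% ± 0.346 in cells below 50000 UMIs (n = 12 samples with at least 3 such cells), 3.88% ± 0.393 from 50000 to 100000 (n = 11), 3.60% ± 0.265 from 100000 to 200000 (n = 16), 3.10% ± 0.135 from 200000 to 400000 (n = 16) and 2.21% ± 0.135 above that (n = 15). The mean share was thus alike within its spread in both ranges below 100000 UMIs and lower in each range above. The median over cells was 3.54% below 50000 UMIs and 3.97% from 50000 to 100000.

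Counts of abundant genes grew more slowly than the depth of the cell. The median count of Rpl41 was 81 UMIs in labelled cells of 20000 to 50000 UMIs, 158 in cells of 50000 to 100000, 221.5 in cells of 100000 to 200000, 296.5 in cells of 200000 to 400000 and 434 in cells of 400000 to 800000. Rps16 went from 41.5 to 277.5 over the same ranges. Rpl31 went from 2 to 69 and Rpl38 from 1 to 62.5, which is more than in proportion to depth. Over all genes, counts of a gene in a cell fell off faster above 250 UMIs than below. In cells of 200000 to 400000 UMIs, 1.93% of nonzero values lay from 150 to 200, 1.32% from 200 to 250, 0.554% from 250 to 300 and 0.186% from 300 to 350. What sets this range was not tested, and every depth and cell type comparison below carries it.

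**Figure D2:**
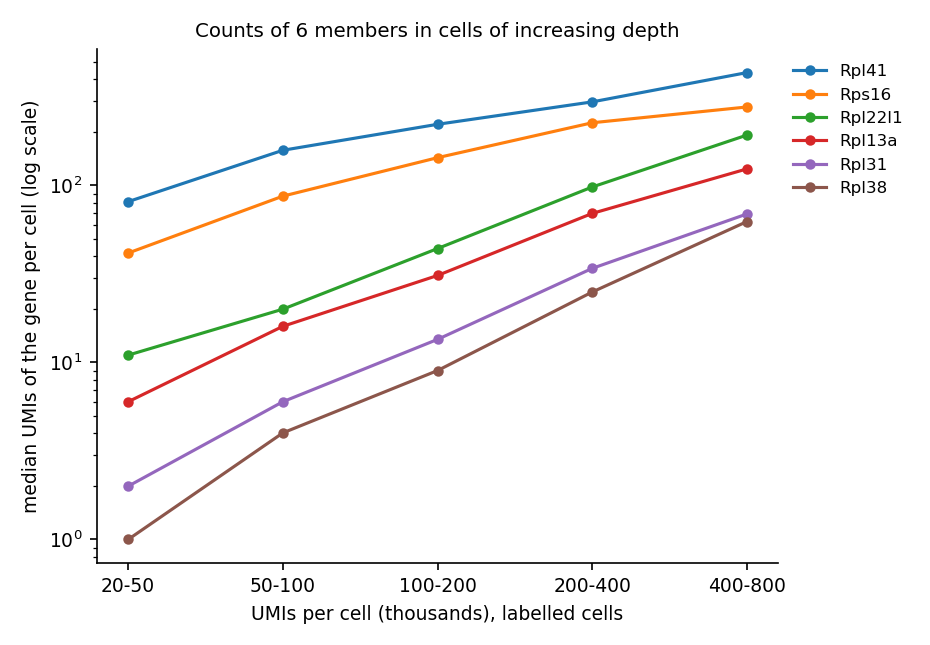
Median UMIs of a gene per cell on a log axis (vertical) for 6 ribosomal protein genes in labelled cells of 5 ranges of UMIs per cell (horizontal); each point is the median over the cells of a range. The lines of Rpl41 and Rps16 flatten toward 434 and 277.5 UMIs, while those of Rpl31 and Rpl38 keep rising, to 69 and 62.5.

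Deep and shallow cells of the same sample differed in most ribosomal genes. Cells were split by UMIs within each sample, and the deepest tercile was compared with the shallowest over 16 samples, with the sample as a block in the quasi-likelihood test of edgeR. Deep cells held 6.95 ± 2.32 times the UMIs and 4.78 ± 2.00 times the ribosomal UMIs (ratio of medians, SD, n = 16), and their ribosomal share was 0.644 ± 0.0744 of that in shallow cells. The share was 3.70% ± 0.287 in shallow and 2.38% ± 0.327 in deep cells, lower in the deep cells of 16 of 16 samples.

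At an adjusted p of 0.05, 51 of the 62 ribosomal genes were lower in deep cells and 3 were higher, where 14.6% of the 10058 genes tested were lower and 25.4% higher. Their median log2 fold change was -0.98, against 0.12 over all genes. By subunit, 32 of 36 large-subunit genes and 19 of 26 small-subunit genes fell, with medians of -0.96 and -0.99. Among the furthest were Rpl41, which fell by 1.62 ± 0.07 on the log2 scale (SE, edgeR adjusted p = 2.23e-14) and Rps16, which fell by 1.49 ± 0.06. The 3 that rose were Rpl38 with 0.60 ± 0.08 (edgeR adjusted p = 1.63e-06), Rpl31 with 0.20 ± 0.06 (edgeR adjusted p = 0.0162) and Rps13 with 0.17. Without sham sample 1, or with DESeq2, Rpl38 alone of the 62 was called higher, with 0.56 in both, and Rpl31 had 0.13 (adjusted p = 0.11) and 0.15 (adjusted p = 0.0537). The 8 ribosomal genes with no call were Rps27l, Rps25, Rps29, Rps18l1, Rps4y2, Rpl9, Rps10l1 and Rpl39, with values from -0.32 to 0.22.

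The size of this difference followed the level of the gene and not its subunit. Across the 62 genes the Spearman correlation between mean CPM and the deep-to-shallow log2 fold change was -0.97, as a description of genes measured in the same cells. Of the 47 ribosomal genes at 300 CPM or more, 47 fell, with a median of -1.09, and of the 15 below it 4 fell, with a median of -0.12. The ranges of level that follow are by CPM over the labelled samples. At 300 CPM or more, other genes of like level differed in the same direction. At 600 to 1200 CPM, 158 of 158 other genes fell with a median of -1.19, beside 13 of 13 ribosomal genes with -1.39. At 300 to 600 CPM, 519 of 537 others fell with a median of -0.55, beside 34 of 34 ribosomal genes with -0.98. At 100 to 300 CPM the median was -0.01 for 1833 others and -0.12 for 9 ribosomal genes. Below 100 CPM it was 0.20 for 7436 others, of which 2197 were higher and 255 lower, and -0.07 for 6 ribosomal genes, none of them called. The 3 ribosomal genes that rose were in the range of 100 to 300 CPM, where 4 fell, and where 352 of the others rose and 455 fell. By the mean over QC cells, Rpl31 with 92.6 and Rpl38 with 80.3 CPM lie below 100, where most of the others that were called rose. Rplp0, Rplp1 and Rpsa also fell, by 1.35, 0.96 and 1.04 on the log2 scale. Lists of other genes gave 30 of 36 fallen and 1 risen among proteasome genes, 5 of 6 fallen among elongation factors, and 11 fallen and 32 risen of 71 for the mitochondrial ribosome.

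Deep cells were also of other types: NF-like cells made up 38.1% ± 21.7 of the deep and 8.64% ± 8.86 of the shallow cells (SD, n = 16). With terciles set within each sample and type, 47 ribosomal genes fell and 5 rose, with a median of -0.63. Rpl38 then had 0.63 ± 0.13 and Rpl31 0.35 ± 0.08. Each cell thinned to 20000 UMIs, which removes unequal sampling but not the shape of the counts, gave 48 of 59 fallen and a median of -0.80.

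**Figure D3:**
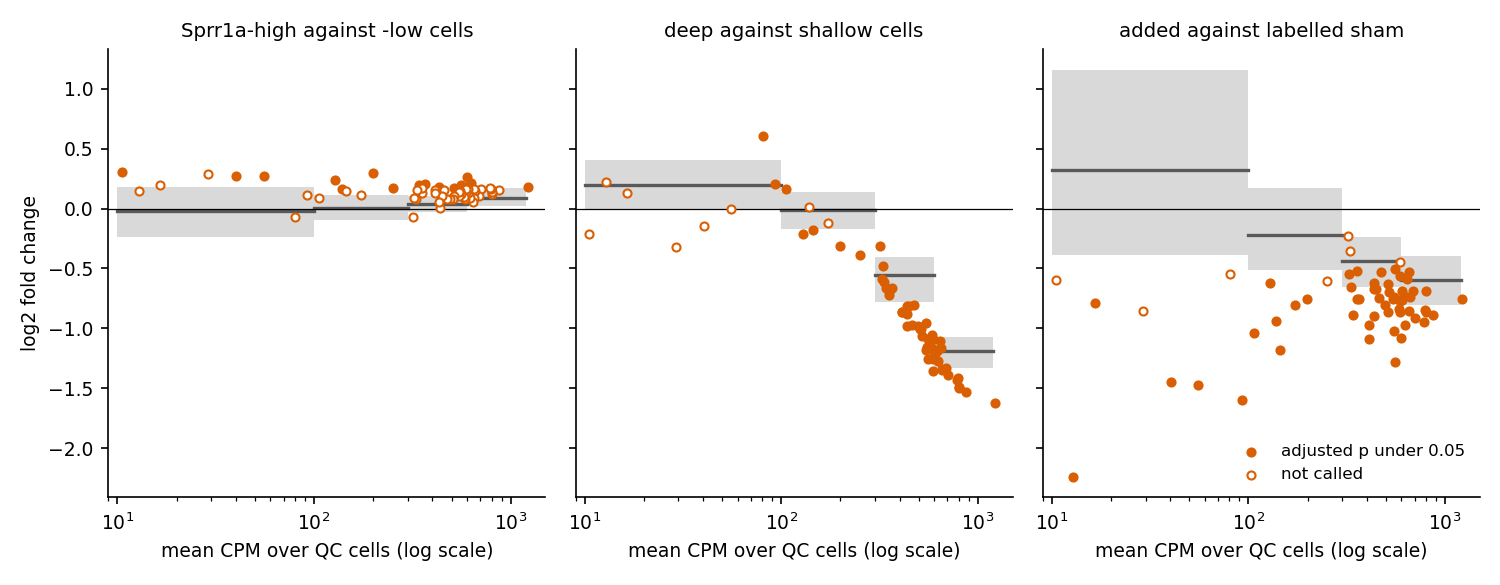
Log2 fold change (vertical) against mean CPM on a log axis (horizontal) for 62 ribosomal protein genes in 3 comparisons; filled points passed an adjusted p of 0.05 in edgeR, open points did not, and grey boxes with a line show the middle 50% and the median of all other genes tested, from 10 to 100 (also holding genes below 10), 100 to 300, 300 to 600 and 600 to 1200 CPM. Points stand at the mean CPM over QC cells, while the boxes group genes by CPM over labelled samples, so some points lie over a neighbouring box. In deep against shallow cells the points run from near 0 to -1.62 with level, as the grey boxes do.

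Between neuron types the deepest cells had the lowest ribosomal share. Clusters were named from markers, and the 1 member among the variable genes was left out of the clustering, but cells of a type were not compared by a test. Some clusters carried markers of other lists too. The Shox2/Ntng1 cluster had 9 of 12 NF markers and 4 of 4 of putative low-threshold C-mechanoreceptors. The Sst-high cluster had 4 of 4 SST markers and 10 of 15 PEP3 markers. The 2 NF-like types had the lowest shares, 2.08% ± 0.206 (Shox2/Ntng1, SD, n = 12 samples) and 2.21% ± 0.305 (S100a16/Kcnv1, n = 15). NP-like cells had 2.62% ± 0.135 (n = 8), Sst-high SST-like cells 2.81% ± 0.271 (n = 8), PEP3-like cells 2.94% ± 0.355 (n = 11) and Anxa8 SST-like cells 3.06% ± 0.301 (n = 12). PEP2-like cells had 3.30% ± 0.251 (n = 16), PEP1-like cells 3.31% ± 0.521 (n = 16) and cold-like cells, marked by Trpm8, 3.64% ± 0.255 (n = 5). PEP1-like and PEP2-like cells did not differ beyond their spread, nor did neighbours in the order from NP-like to Anxa8 SST-like cells.

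NF-like cells lay below the other cells of their own sample in 12 of 12 samples for the Shox2/Ntng1 type and in 14 of 15 for the S100a16/Kcnv1 type. They were also the deepest, with medians of 526880 and 441320 UMIs, against 150660 to 311100 in the other named types. The order of these types was the same at like depth, on fewer samples. Among cells of 200000 to 400000 UMIs, NF-like cells had 2.52% (mean of 2 samples, Shox2/Ntng1) and 2.52% (1 sample, S100a16/Kcnv1), NP-like cells 2.94% ± 0.121 (n = 2), Sst-high SST-like cells 2.96% ± 0.0924 (n = 4), PEP2-like cells 3.23% ± 0.167 (n = 8) and PEP1-like cells 3.31% ± 0.245 (n = 12).

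**Figure D4:**
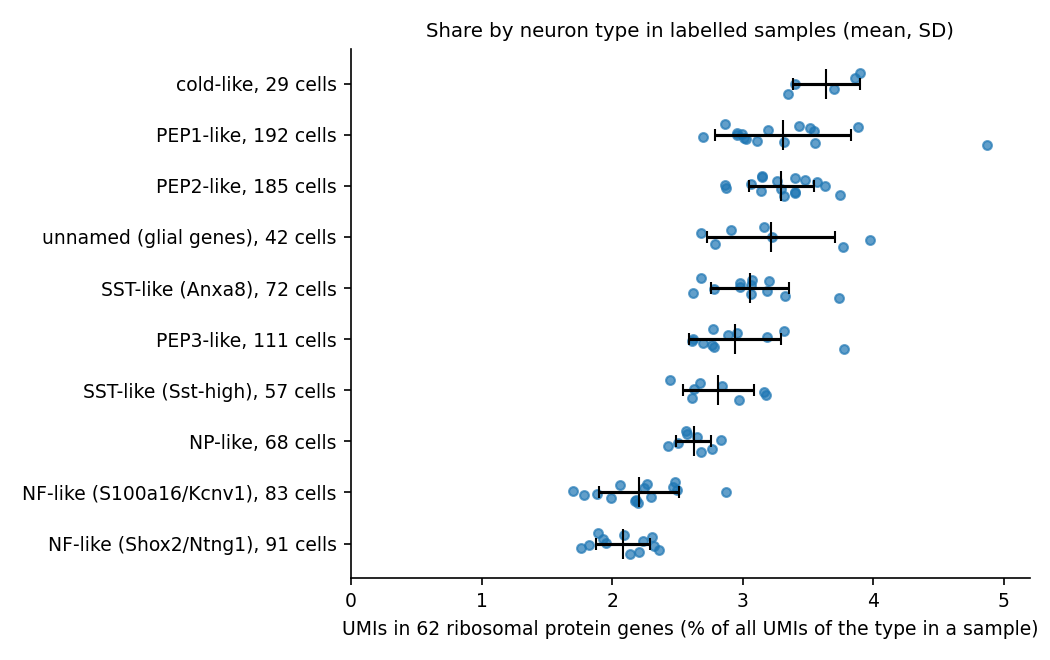
Share of a type's UMIs in 62 ribosomal protein genes (horizontal, percent) for 10 clusters of labelled cells (vertical); each point is 1 sample with at least 3 cells of the type, and the bars are the mean and SD. The NF-like types sit lowest, at 2.08% and 2.21%, and cold-like cells highest, at 3.64%.

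Most members kept the order of the sum. The mean CPM over samples was lowest in an NF-like type for 51 of the 62 ribosomal genes and highest in cold-like cells for 54. The ratio of the highest to the lowest type had a median of 1.69 and a range of 1.16 for Rpl9 to 11.3 for Rps4y2. Rps4y2, an Rps4 paralog with a UMI in 57.4% of QC cells, had 67.9 CPM in NP-like, 63.2 in PEP2-like and 6.03 in Sst-high SST-like cells. Rpl38 ran the other way, from 154 CPM in the Shox2/Ntng1 NF-like type to 78.1 in PEP2-like cells, and Rpl22l1 was highest in PEP3-like cells at 387 and lowest in Anxa8 SST-like cells at 284. Among the other members the type ratio was 3.76 for Rps6ka1, 3.00 for Rps6kl1, 2.88 for Rps6ka3 and 2.70 for Rps6ka5. Rps6ka1 and Rps6ka3, which encode the kinases RSK1 and RSK2, were highest in the Shox2/Ntng1 NF-like type, at 38.8 and 70.5 CPM.

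The time course asked whether the members changed after SNC. The share of UMIs was 3.60%, 2.90%, 2.85% and 2.60% in sham samples 1 to 4, and 2.59%, 2.75%, 2.44% and 2.35% in SNC 1 d samples 1 to 4. It was 2.70%, 2.67% and 2.90% in SNC 3 d samples 1 to 3. It was 2.78%, 2.72%, 2.95%, 2.47% and 2.65% in SNC 7 d samples 1+2, 3, 4, 5 and 6. The mean was 2.99% ± 0.428 for sham (SD, n = 4), 2.53% ± 0.174 for day 1 (n = 4), 2.76% ± 0.126 for day 3 (n = 3) and 2.71% ± 0.175 for day 7 (n = 5). The sham samples overlapped those of every other time. Median UMIs per cell averaged 214060 ± 44398 for sham, 255130 ± 42257 for day 1, 216440 ± 24468 for day 3 and 296500 ± 101800 for day 7. Median ribosomal UMIs per cell were not lower after SNC, averaging 7093.5 ± 885, 8022 ± 860, 7621 ± 680 and 9076 ± 2075 in the same order. Whether the shares differ through depth was not tested. Sham sample 1, with 24 cells, had the highest share. It also had 79.2% of cells at 100 CPM or more of Sprr1a and 4.17% of NF-like cells, against 22.9 to 55.3% and 14.9 to 26.0% in the other sham samples. Without the cluster of glial genes its share was 3.51%. In these sums fewer cells of a type and less RNA per cell cannot be told apart.

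**Figure D5:**
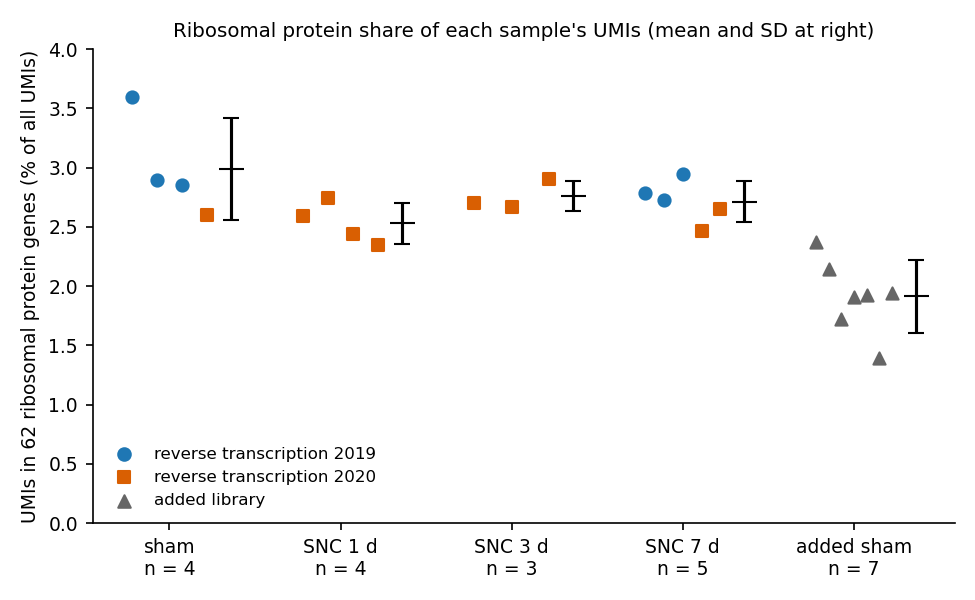
Percent of a sample's UMIs in 62 ribosomal protein genes (vertical) by group (horizontal); points are samples, with shape and colour for the earlier or later year of reverse transcription, and bars to the right of each group give its mean and SD. The labelled groups overlap between 2.35% and 3.60%, and the 7 added libraries lie between 1.39% and 2.37%.

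No ribosomal gene passed an adjusted p of 0.05 in edgeR at any time, nor did any of the 14239 genes tested (0% called in each comparison). At 1 day 61 of the 62 ribosomal genes were below 0, with a median log2 fold change of -0.30 against -0.01 over all genes, and 40 had an unadjusted p under 0.05, as did 1243 of all genes. At 3 days 55 were below 0 with a median of -0.16, and 3 had such a p, as did 594 of all genes. At 7 days 59 were below 0 with a median of -0.20, and 7 had such a p, as did 476 of all genes. The members are not independent of each other, since they moved together between cells and share the same 4 sham samples in all 3 comparisons. DESeq2 called 17 genes at 1 day, of which Rps10l1 was the only ribosomal gene, 1 gene at 3 days and 0 at 7 days. The large- and small-subunit medians were -0.30 and -0.29 at 1 day, -0.17 and -0.14 at 3 days, and -0.20 and -0.21 at 7 days. Of 7 injury genes, among them Sprr1a, Gal and Atf3, 0 were called at any time. Their medians were -0.21, -0.23 and -0.18 at 1, 3 and 7 days, so labelled sham was not lower in these genes as a set. The comparisons therefore do not set SNC against samples low in injury genes.

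The members with the lowest p at 1 day were Rpl31 with -0.86 ± 0.23 (SE, edgeR adjusted p = 0.518), Rpl26 with -0.86 ± 0.23 and Rps10l1 with -1.87 ± 0.52. At 3 days they were Rpl31 with -0.61 ± 0.25 (edgeR adjusted p = 0.966), Rps10l1 and Rpl26. All 3 were highest in sham sample 1, as 54 of the 62 were. At 7 days they were Rps28 with -0.33 ± 0.13 (edgeR adjusted p = 0.9998), Rps27 with -0.30 ± 0.12 and Rpl37a with -0.32 ± 0.13. Samples did not overlap with sham for Rps3, Rpl27 and Rpl26 at 1 day, for 0 ribosomal genes at 3 days and for Rps27 at 7 days, where 1.04%, 2.56% and 0.379% of all genes lay wholly below sham. No ribosomal gene lay wholly above sham at any time, where 2.35%, 3.14% and 0.681% of all genes did.

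Rpl31 measured 110, 109, 83.8 and 85.6 CPM in the 4 samples at 1 day, and 126, 95.2 and 121 in the 3 samples at 3 days. It had 181, 130, 144, 132 and 133 CPM in the 5 samples at 7 days. All but the lowest sham value of 108 exceeded every 1-day value. Rps27 measured 796, 680, 638 and 639 CPM in sham and 602, 611, 606, 566 and 540 at 7 days, with no overlap. Rps3 measured 915, 664, 653 and 588 CPM in sham and 586, 586, 538 and 524 at 1 day, where the lowest sham value was just above the highest 1-day value.

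Leaving out sham sample 1 moved the median to -0.17 at 1 day, -0.0038 at 3 days and -0.036 at 7 days. The year of reverse transcription also divided the groups, since sham samples 1 to 3 and SNC 7 d samples 1+2, 3 and 4 were made in the earlier year and all others in the later year. Sham sample 1 and SNC 7 d sample 1+2 were also sequenced at an earlier date than all other labelled samples, which was not tested. Within the earlier year the share was 3.12% ± 0.419 in sham (n = 3) and 2.82% ± 0.115 at 7 days (n = 3). Within the later year it was 2.60% in the 1 sham sample and 2.56% ± 0.127 at 7 days (n = 2), beside all samples of 1 and 3 days. Those last samples of day 7, 5 and 6, share a sample number and a date in the study's sample table and were picked with opposite mixes of the dyes, and the dye mix differs between other samples too. With them merged, and SNC 1 d samples 3 and 4 likewise, the medians were -0.26, -0.16 and -0.19 at 1, 3 and 7 days. With year as a term the medians were -0.14 at 1 day, 0.0050 at 3 days and -0.15 at 7 days. With the date as a block they were -0.17, 0.25 and -0.0084, so the 3-day median changed direction. No sham sample shares a date with a sample of 1 or 3 days. Under this block those medians rest on SNC 1 d samples 3 and 4 and SNC 3 d sample 3. These share a date with SNC 7 d samples 5 and 6, and are tied to sham only through day 7. Outside PEP1-like cells the share was 2.92% ± 0.398 for sham, 2.44% ± 0.167 for day 1, 2.66% ± 0.0845 for day 3 and 2.59% ± 0.158 for day 7, with medians of -0.33, -0.19 and -0.24 and 0 ribosomal genes called.

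By type, PEP1-like cells had a share of 3.71% ± 0.792 for sham (n = 4), 2.92% ± 0.153 for day 1 (n = 4), 3.17% ± 0.331 for day 3 (n = 3) and 3.38% ± 0.378 for day 7 (n = 5). The day 1 samples, from 2.70% to 3.03%, lay below the sham samples, from 3.11% to 4.87%, the highest of which was sham sample 1 with 4 such cells. In PEP3-like cells the day 1 samples, from 2.61% to 2.69% (n = 3), also lay below sham, from 2.76% to 3.77% (n = 3). PEP2-like cells had 3.47% ± 0.191, 3.23% ± 0.317, 3.17% ± 0.364 and 3.29% ± 0.149 in the same order, and the groups overlapped. The Shox2/Ntng1 NF-like type had 2.23% ± 0.115 for sham (n = 3), 2.04% ± 0.397 for day 1 (n = 2), 2.01% ± 0.210 for day 3 (n = 3) and 2.05% ± 0.187 for day 7 (n = 4), again with overlap. The S100a16/Kcnv1 NF-like type was not lower at every time, with 2.19% ± 0.0109 in sham (n = 3) and 2.30% ± 0.174 at 7 days (n = 5). Nor were all types lower at day 1. NP-like cells had 2.62% ± 0.174 in sham (n = 3) and 2.66% ± 0.168 at day 1 (n = 3). Sst-high SST-like cells had 2.79% ± 0.255 in sham (n = 2) and 3.18% in the 1 sample of day 1. Anxa8 SST-like cells had 3.38% ± 0.341 in sham (n = 3) and 2.90% ± 0.397 at day 1 (n = 2), with overlap.

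Sprr1a, a gene that sensory neurons turn on after axon injury, was used to divide the cells. Cells at 100 CPM or more were called Sprr1a-high. They made up 45.1% ± 27.4 of cells for sham, 48.1% ± 10.7 for day 1, 43.2% ± 7.12 for day 3 and 49.2% ± 17.0 for day 7, so the class does not separate SNC from sham. In the 12 SNC samples the ribosomal share was 2.78% ± 0.270 in high and 2.59% ± 0.214 in low cells, and it was higher in the high cells of 10 of 12 samples. The exceptions were SNC 1 d sample 4 and SNC 7 d sample 3. Median UMIs per cell averaged 244870 ± 68144 in high and 279510 ± 94062 in low cells, and the high cells were shallower in 7 of 12 samples. In the 4 sham samples the shares were 3.32% ± 0.543 and 2.81% ± 0.295, higher in 4 of 4.

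With the sample as a block, 16 of 62 ribosomal genes were higher in Sprr1a-high cells and 0 lower at an adjusted p of 0.05, where 13.3% of 12110 genes were higher and 13.9% lower. The median log2 fold change of the 62 was 0.15, against -0.01 over all genes. Level is here by CPM over the labelled samples. At 600 to 1200 CPM 3 of 13 ribosomal genes and 39 of 158 others were higher, with medians of 0.16 and 0.09. At 300 to 600 CPM 6 of 34 and 86 of 537 were, with medians of 0.13 and 0.04. At 100 to 300 CPM 4 of 9 and 383 of 1833 were, and below 100 CPM 3 of 6 and 1083 of 9488. The abundant ribosomal genes were thus called about as often as others of like level. The furthest were Rpl39 with 0.31 ± 0.10 (SE, edgeR adjusted p = 0.0362), Rpl13a with 0.30 ± 0.05 (edgeR adjusted p = 0.000211), Rps18l1 with 0.27 ± 0.07 and Rps29 with 0.27 ± 0.06. Rpl39 missed the threshold in 7 of 12 fits that left out 1 sample, with an adjusted p of up to 0.0811 in edgeR, while the other 3 passed in 12 of 12. Among the other members Rps6kb2, an S6 kinase, had 0.30 ± 0.07 (edgeR adjusted p = 0.00736) and Rps6kc1 0.26 ± 0.06. Of the elongation factors Eef1a1, Eef2 and Eef1b2 were higher, with 0.32, 0.26 and 0.17. Of the injury genes 7 of 7 were higher, with a median of 0.99. For Sprr1a, with 3.77, this follows from the way the classes were made. The others, among them Gal with 1.27 and Atf3 with 0.99, were not used to make the classes.

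These calls went with cell type. PEP-like cells made up 64.6% ± 12.4 of Sprr1a-high and 37.6% ± 14.6 of Sprr1a-low cells of the SNC samples, and NF-like cells 19.0% ± 11.5 and 23.4% ± 11.9. With sample and type together as the block, 1 of 62 ribosomal genes was called higher, Rpl13a with 0.25 ± 0.07 (edgeR adjusted p = 0.0227), and 514 of 9234 genes were called in either direction. The ribosomal median was then 0.01, with 35 genes above and 27 below 0. Within PEP1-like cells the share was 3.25% in high and 3.23% in low cells (means of 7 samples, high above low in 4), and within PEP2-like cells 3.23% and 3.21% (6 samples, high above low in 3). Single samples also set the count of 16, which ran from 7 without SNC 1 d sample 1 or sample 3 to 49 without SNC 7 d sample 3. It was 8 without SNC 3 d sample 2 or SNC 7 d sample 1+2, 9 without SNC 7 d sample 4 or 6, 10 without SNC 3 d sample 1 and 26 without SNC 1 d sample 4.

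The added sham libraries had a lower ribosomal share of their UMIs than the labelled sham samples. Their share was 2.37%, 2.15% and 1.72% in the 3 libraries at 0 days, 1.91% and 1.92% at 1 day, 1.39% at 3 days and 1.94% at 7 days. The mean was 1.92% ± 0.308 (SD, n = 7), and 6 of the 7 lay below the lowest labelled sample of any group at 2.35%, while the highest, at 2.37%, lay below every labelled sham sample. Ribosomal UMIs per cell were not lower, with medians that averaged 7186 ± 1788 in the added libraries and 7093.5 ± 885 in labelled sham. The added cells were deeper, with median UMIs that averaged 335310 ± 81966 against 214060 ± 44398. NF-like cells made up 0 to 51.2% of the cells of the added libraries, most in the library of day 3, which had the lowest share. The dye labelling and the date of reverse transcription of the added libraries are not given in the sources used here, so these and the part of the series cannot be told apart. Sprr1a was at or above 100 CPM in 0 of 503 added cells, which allows a share of up to 0.596% for counting error only and says nothing of the spread between libraries, and 1 of those cells had any Sprr1a UMI.

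Against the 4 labelled sham samples, 55 of 62 ribosomal genes were lower and 0 higher in the 7 added libraries, where 16.5% of 15791 genes were lower and 24.2% higher. Their median log2 fold change was -0.76, against 0.15 over all genes. By subunit, 31 of 36 and 24 of 26 fell, with medians of -0.76 and -0.75. The furthest were Rps10l1, which fell by 2.24 ± 0.56 (SE, edgeR adjusted p = 0.0070), Rps29 by 1.47 ± 0.27, Rps18l1 by 1.45 ± 0.27 and Rps18 by 1.28 ± 0.24 (edgeR adjusted p = 0.00121), with Rpl31 next after Rps10l1. The 7 not called were Rpl22l1 with -0.23 ± 0.12 (edgeR adjusted p = 0.14), Rpl5, Rps28, Rpl38, Rpl39, Rpl37 and Rps4y2.

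Rps18 lay between 134 and 420 CPM in the added libraries with a median of 283, and at 811, 622, 588 and 557 CPM in labelled sham, so the groups did not overlap. Rps29 lay between 22.6 and 59.4 CPM with a median of 36.0, against 137, 97.3, 78.9 and 63.2. Rpl22l1 lay between 237 and 361 with a median of 314, against 306, 326, 329 and 361, and overlapped. The added libraries lay wholly below labelled sham for 40 of 62 ribosomal genes and wholly above for 0, where 7.72% and 19.9% of all genes did so.

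The ribosomal genes were also lower in narrower sets of cells, in comparisons chosen after seeing the data. The added NF-like cluster is marked by Shox2 and Ntng1, while labelled NF-like cells include the S100a16/Kcnv1 type. S100a16 is a top marker of an added cluster left unnamed, so the NF-like cells of the sets can differ in kind. Between NF-like cells of both sets 59 of 62 ribosomal genes were lower with a median of -0.81, and between cells of 200000 to 400000 UMIs 50 were lower with a median of -0.62. Against labelled sham cells below 100 CPM of Sprr1a 53 were lower with a median of -0.61. At 200000 to 400000 UMIs the added share was 2.21% ± 0.400 (n = 7), against 3.10% ± 0.135 in all labelled samples (n = 16). The added NF-like cells had 1.55% ± 0.154 (n = 5), below the rest of their library in 5 of 5. The share followed depth less closely in the added cells, with a Spearman correlation of -0.38 across the 503 cells.

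Other abundant genes were also lower in the added libraries, by less than the ribosomal genes of like level. Level is again by CPM over the labelled samples. At 600 to 1200 CPM the median was -0.60 for 158 other genes, of which 125 fell, and -0.86 for 13 ribosomal genes, of which 13 fell. At 100 to 300 CPM it was -0.22 for 1833 other genes and -0.80 for 9 ribosomal genes. No test of that gap was made. Of the lists, 29 of 37 proteasome genes, 35 of 72 mitochondrial ribosome genes and 7 of 7 injury genes were lower, the last with a median of -2.06. Of 12 mTOR pathway genes 5 rose and 3 fell. Of the genes whose proteins hold back cap-dependent translation, Eif4ebp1 fell by 2.15 ± 0.50, while Eif4ebp2 rose by 1.27 ± 0.33 and Eif4ebp3 by 1.09 ± 0.13. Of 20 genes of rRNA synthesis and ribosome assembly 5 fell and 3 rose, Nop56 falling by 1.15 ± 0.13 and Tsr1 rising by 0.90 ± 0.15.

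Of the 9 kinases among the members 5 rose, where 24.2% of all genes did. Rps6ka2, which encodes RSK3, lay between 97.0 and 190 CPM with a median of 134 in the added libraries and at 35.7, 39.5, 26.5 and 41.8 CPM in labelled sham, with no overlap. It rose by 1.91 ± 0.23 on the log2 scale (SE, edgeR adjusted p = 9.56e-05). Rps6ka6 rose by 1.69 ± 0.28, Rps6ka5 by 1.15 ± 0.20, Rps6ka1 by 1.09 ± 0.24 and Rps6ka3 by 0.92 ± 0.20. Of the 10 members that are no ribosomal proteins, 5 rose and 2, Rps19bp1 and Rps6kb2, fell, by 0.64 ± 0.14 and 0.56 ± 0.18. Rps6kb1, Rps6kc1 and Rps6kl1 were not called. Between NF-like cells Rps6ka2 had 1.42 ± 0.28 and Rps6ka6 1.61 ± 0.41, while Rps6ka1 and Rps6ka5 missed the threshold with 0.61 ± 0.29 and 0.50 ± 0.25.

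Outside the members, the genes whose level per cell was most like the ribosomal share were found among 3931 genes with at least 50 CPM, by the median within-sample Spearman correlation over 16 samples. The first 10 were Rpl21-4 with 0.89, LOC100360449 with 0.88, Rps27a-2 with 0.87, LOC687780 with 0.87, Rplp0 with 0.86, Eno1 with 0.84, LOC108352650 with 0.84, Eef1g with 0.82, S100a11 with 0.81 and ENSRNOG00000018630 with 0.80. Rpl21-4 and Rps27a-2 carry ribosomal symbols that the name pattern missed. Eno1 is a glycolytic enzyme and Eef1g a subunit of elongation factor 1. All 10 had mean levels above 700 CPM, so they share the range of counts in which levels flattened with depth. The gene least like the share was Vamp1, a synaptic vesicle protein, with -0.64.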

How the data were processed

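The deposited files hold UMI counts per gene and cell, raw and not normalised, for 24 libraries. Per the methods and the submitters' processing notes, the authors trimmed reads, aligned them to Rnor_6.0 with STAR, assigned them with featureCounts and SAMtools, and collapsed UMIs with UMI-tools. Because reads start from oligo-dT, only 3′ ends were counted. The cells kept had 500 or more genes, 1000 or more UMIs and an Mt- share below 5%. Cells were picked singly, so no doublet caller was run.

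Counts were summed over the cells of each DRG sample and tested with the quasi-likelihood test of edgeR 4.0.16 (R 4.3.3), with TMM normalisation, its expression filter and Benjamini-Hochberg adjustment over all genes tested. The DRG sample was the block for Sprr1a classes and depth terciles, whose classes come from the same sample. All 72 members passed the filter in each comparison. Alternatives were DESeq2 1.42.0, its size factors, no filter, thinning each cell to 20000 UMIs, year or date of reverse transcription (from the study's sample table), other strata and leaving out each sample. The scripts' fits were tested on simulated data. Clusters were made with Seurat 5.3.0 (40 components, resolution 0.5, 2000 variable genes) for labelled and added libraries apart, and named from marker lists. The year and date of the added libraries are not given in the sources used here. No test was made of the summed share. Total UMIs per sample were 4002503 to 40732975, and limits from zero counts (3 counts over the total) cover counting error only.

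The members, gene lists and named genes were chosen with earlier results of these data known. Named were the 5 highest and 5 lowest members, up to 5 at each end of a comparison among those past the threshold (otherwise the 3 with the lowest p), the 5 with the largest ratio between types, the 10 genes most like the share, and others singled out after their values were seen. Some genes that the rule names are not reported here. Glial markers were summed over 4 genes of their list.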

Additional observations from a re-analysis of the deposited data

Results flagged for a closer look

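Single samples of members stood apart from the rest of their group in 4 of 92 groups of values examined, where chance flags about 1 in 20. In SNC 1 d sample 1, Rps10l1 had 13.47 CPM, against 8.50 to 9.00 in the other 3 samples, and Rpl38 had 70.79 CPM, against 129 to 137. Rpl31 had 180.8 CPM in SNC 7 d sample 1+2, against 130 to 144 in the other 4 samples. Rps29 had 59.41 CPM in added sham 0 d library 1, against 22.6 to 38.0 in the other 6 libraries.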

How the results depend on the processing

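For the time course, the median log2 fold change of the ribosomal genes was -0.14 at 1 day and 0.0050 at 3 days with year as a term, and -0.17, 0.25 and -0.0084 at 1, 3 and 7 days with date as a block. With that block, days 1 and 3 are tied to sham only through day 7. Leaving out 1 sample gave -0.39 to -0.17 at 1 day, -0.25 to -0.0038 at 3 days and -0.27 to -0.036 at 7 days, each highest without sham sample 1. DESeq2 called 1 ribosomal gene lower at 1 day. Ribosomal genes called higher in Sprr1a-high cells numbered 47 with a limit of 30 CPM, 56 (and 1 lower, median 0.43) with 300 CPM, 1 with the block of sample and type, 29 with the block of sample and depth, 4 with no replicate block, and 0 (median 0.33) in the 4 sham samples, which were tried once the data had been seen. Leaving out 1 sample gave 7 to 49. For deep cells, ribosomal genes called higher numbered 1 with DESeq2 or its size factors, 5 with the block of sample and type, and 1 to 3 when 1 sample was left out. The median was -0.80 after thinning and -0.63 with the block of sample and type. The labels give no replicate numbers that pair samples of different groups, so beyond the classes within a sample the date was the only block across groups. In the added libraries 50 to 61 ribosomal genes were lower under the alternatives run, with medians from -0.88 to -0.61. Of values for single genes, 695 kept their side of the threshold, 33 lost it, 1 gained it and 0 changed direction when called. The time course rests on 3 to 5 samples a group, and the abundant genes carry the flattening of counts with depth.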
